A study of Mus musculus with 37 samples.

Results

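miR-132 and miR-212 are a pair of mature microRNAs (miRNAs) from 1 locus, and they are followed here through 12 populations of mouse stem, progenitor and leukaemic cells. They were taken as the assays named exactly miR-132 and miR-212, which are 2 of the 459 assays of a TaqMan quantitative PCR panel. Each run of the panel gave a threshold cycle (Ct) per assay, where a lower Ct means more RNA and 40 means that nothing amplified. The lysates held between 20 and 1000 cells, and no label says how many went into a given run.

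The 12 populations gave 37 runs. From wildtype C57/Bl6 muscle came 4 runs of quiescent satellite cells of the tibialis anterior (MuSC) and 4 of proliferating, committed myoblasts of the limbs (Myoblast). From wildtype C57/Bl6 marrow came LT-HSC, 4 runs of cells from a gate for long-term stem cells of blood that includes Endoglin+, Sca-1+ and Lin-. KSL-B6, 3 runs from the same strain, held the Kit+ Sca-1+ Lin- gate of progenitors. Another 2 wildtype runs of that progenitor gate came from Mixed 129Sv/J:C57Bl6 mice (KSL-Mixed). KSL-ETO (3 runs) is that gate in C57/Bl6 mice transgenic for AML-ETO9a, a leukaemia fusion gene, and KSL-RbTKO (2 runs) is that gate in Rb family triple knockout mice of the mixed strain. C57/Bl6 mice transduced with the MLL-AF10 oncogene gave Kit+ leukaemia stem cells (MLL-LSC, 3 runs) and the Kit- leukaemia cells derived from them (MLL-Prog, 3 runs). Neural stem and progenitor cells of the subventricular zone and dentate gyrus were wildtype, with 3 runs each of fresh newborn isolates (NSPC-P0, day 0, C57/Bl6), neurospheres cultured from those isolates (NSPC-P0-Exp, C57/Bl6) and neurospheres of adult mice (NSPC-Adult, labelled C57/Bl6, C57/Bl7 and C57/Bl8). The neurospheres are cultures and NSPC-P0 is a fresh isolate, so in that contrast culture and the make-up of the sample change together. The labels name neither the promoter of the transgene or the driver of the deletions nor any age beyond newborn and adult.

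The locus is best known from neurons, where the transcription factor CREB switches it on after electrical activity or neurotrophin signals. Both mature miRNAs are cut from hairpins of 1 primary transcript and are read by the Argonaute complex through their seed, the bases that pair with target messages. In neurons they are known for shaping dendrites and synapses, and in blood the same locus has been tied to the maintenance of stem cells with age through Foxo3, a transcription factor of stem cell quiescence.

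The mature sequences are shown because the pair share a seed and differ only in the rest of the strand. They are the RefSeq entries on GRCm38.p6, with the seed (bases 2 to 8) in capitals. The files name the assays without an arm and give no probe sequence. In the naming of the time the plain names stood for the 3p strands.
mmu-miR-132-3p: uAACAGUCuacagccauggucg
mmu-miR-212-3p: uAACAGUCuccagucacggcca
The strands agree at 17 of 22 positions. Counted from 1 at the 5′ end, with the miR-132-3p base first, they differ at A10C, C14U, U17C, U20C and G22A. Of 1738 mature mouse entries in the RefSeq table, these 2 were the only ones with this seed.

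Both lie on the plus strand of chromosome 11, miR-212-3p at chr11:75173443-75173464 and miR-132-3p at chr11:75173723-75173744. The hairpins show how close the 2 products sit within their precursors, with the mature 3p strand in capitals.
Mir212, chr11:75173388-75173478: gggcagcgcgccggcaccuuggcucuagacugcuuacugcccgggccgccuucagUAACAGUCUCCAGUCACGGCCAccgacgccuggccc
Mir132, chr11:75173682-75173747: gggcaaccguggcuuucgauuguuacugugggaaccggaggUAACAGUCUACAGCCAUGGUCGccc
The hairpins are 91 and 66 bases long, 203 bases apart, and together span 360 bases. In the RefSeq gene table no other gene overlaps either hairpin. The nearest genes on the 2 sides are Hic1, 3132 bases before, and Ovca2, 2195 bases after.

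An assay counted as detected in a run below Ct 35. Runs detected between 61 and 143 assays, with 61 to 65 in KSL-RbTKO and 123 to 143 in NSPC-P0-Exp, and this number limits the precision. The mean Ct of the 28 assays detected in every run lay between 25.0 and 25.4 in KSL-B6 and MLL-LSC, between 27.4 and 28.5 in LT-HSC and MuSC, and between 29.3 and 29.8 in KSL-RbTKO. The MuSC runs form 2 near-identical pairs, with an SD of the difference of 0.156 cycles for runs 1 and 2 (60 assays) and of 0.211 for runs 3 and 4 (42 assays). Each pair therefore counts as 1 sample. Of the defining markers, blood miRNAs summed to 360 to 545 in LT-HSC, most of it miR-223, where 1 is the mean of the 28 assays. Muscle miRNAs summed to 22.8 to 45.6 in Myoblast. MuSC held 0.671 to 0.750 of the muscle list. Of its 3 assays, only miR-206 was detected in every MuSC run. In the neural populations the assay named miR-124a read 40 throughout and the mouse miR-9 assay was detected in no run, while miR-218 was detected in every run. Nothing in the labels states that replicates came from different animals or cultures, so p-values measure the spread between these samples, which may be technical.

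One set of wells touches miR-212 directly. The 459 assays lie on 5 plates, with miR-132 on plate 1 and miR-212 on plate 2. On the 96 assays of plate 2, NSPC-P0-Exp runs 1 and 2 correlated at r = 0.369 with each other and at 0.166 and 0.0427 with run 3. Their best correlation with a run of any other population there was 0.258 and 0.102, whereas run 3 reached 0.921. Every run of the other populations had a partner in its own population at r of 0.874 or higher on that plate. NSPC-P0-Exp runs matched each other at 0.959 or higher on the other 4 plates. Plate 2 of runs 1 and 2 therefore stood apart from all other data, and miR-132, on plate 1, was not among those wells. Tests of miR-212 that use these runs are given with and without them, while population means and correlations include them.

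**Figure D1:**
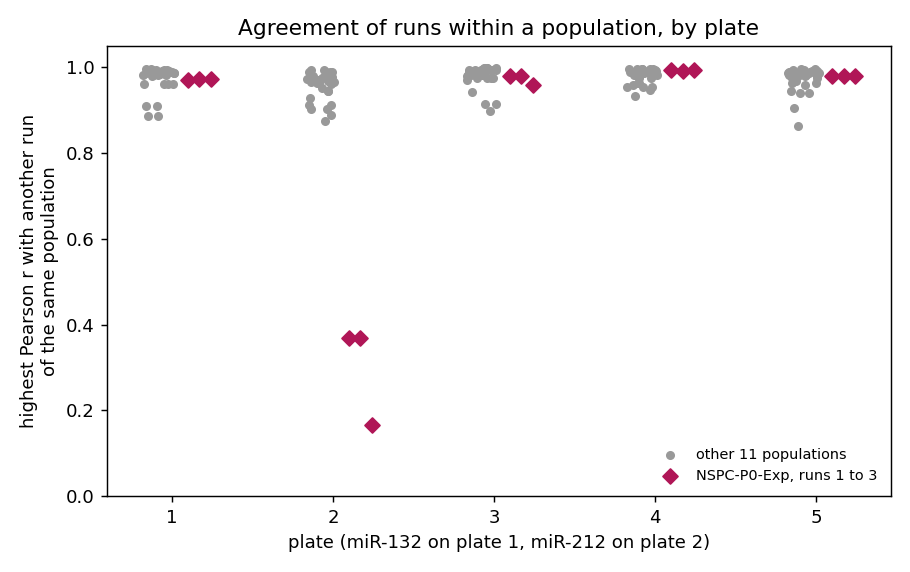
Highest Pearson correlation of each run with another run of its own population, over the assays of each of the 5 plates (x axis). Grey points are runs of the other 11 populations and diamonds the 3 NSPC-P0-Exp runs, which fall to 0.369 or lower on plate 2 and sit at 0.959 or higher on the others.

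miR-132 was detected in 15 of 37 runs, in every run of 4 populations (the 3 neural ones and Myoblast) and in no run of 7. In 6 populations every run read 40. miR-212 was wider, detected in 31 of 37 runs, in every run of 8 populations, and in at least 1 run of all 12. Both were detected together in 13 runs, miR-212 alone in 18, miR-132 alone in 2 (the NSPC-P0-Exp runs whose plate 2 stood apart) and neither in 4.

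In NSPC-P0-Exp miR-132 read Ct 28, 27.8 and 27.7, its lowest values anywhere. In NSPC-P0 it read 30.8, 30.5 and 30.7, and in NSPC-Adult 30.1, 29.7 and 32.2. Myoblast runs read 32.9, 32.6, 31.6 and 31.6. NSPC-P0-Exp lay clear of the other populations, and the third NSPC-Adult run was as high in Ct as the myoblasts. Outside these, LT-HSC read 40, 40, 34.8 and 34.3, detected in 2 runs only and near the limit. KSL-ETO read 36.1, 36.5 and 37.7, which is past the limit but short of 40 in all 3 runs. MuSC, MLL-LSC, MLL-Prog, KSL-B6, KSL-Mixed and KSL-RbTKO read 40 in all of their runs.

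miR-212 had its lowest Ct values in NSPC-Adult, LT-HSC and run 3 of NSPC-P0-Exp. NSPC-Adult read 28.8, 28.4 and 29.1, and LT-HSC read 30, 30.1, 28.8 and 29.4. In NSPC-P0 it read 34.7, 33.2 and 32.7, close to the limit, and in Myoblast 33.7, 34.3, 33.0 and 33.2. Newborn isolates and myoblasts thus overlapped in miR-212, well above the Ct of adult neurospheres. NSPC-P0-Exp read 40, 40 and 28.5, of which only the 28.5 of run 3 comes from a plate that matched other data. MuSC split by sample, with 31.6 and 31.7 in the first and 34.6 and 37.4 in the second.

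In the KSL gates and the leukaemias miR-212 was low or variable. KSL-B6 read 37.2, 37.0 and 33.0, detected in 1 run of 3. KSL-Mixed and KSL-RbTKO both read 32.9 and 33.6, although other assays of their runs differed. KSL-ETO read 32.3, 32.8 and 33.3. MLL-LSC read 31.4, 30.1 and 35.1, and MLL-Prog 32, 33.4 and 32.7. All KSL-ETO, KSL-Mixed and KSL-RbTKO runs lay below the Ct of KSL-B6 runs 1 and 2, and run 3 of KSL-B6 lay among them.

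**Figure D2:**
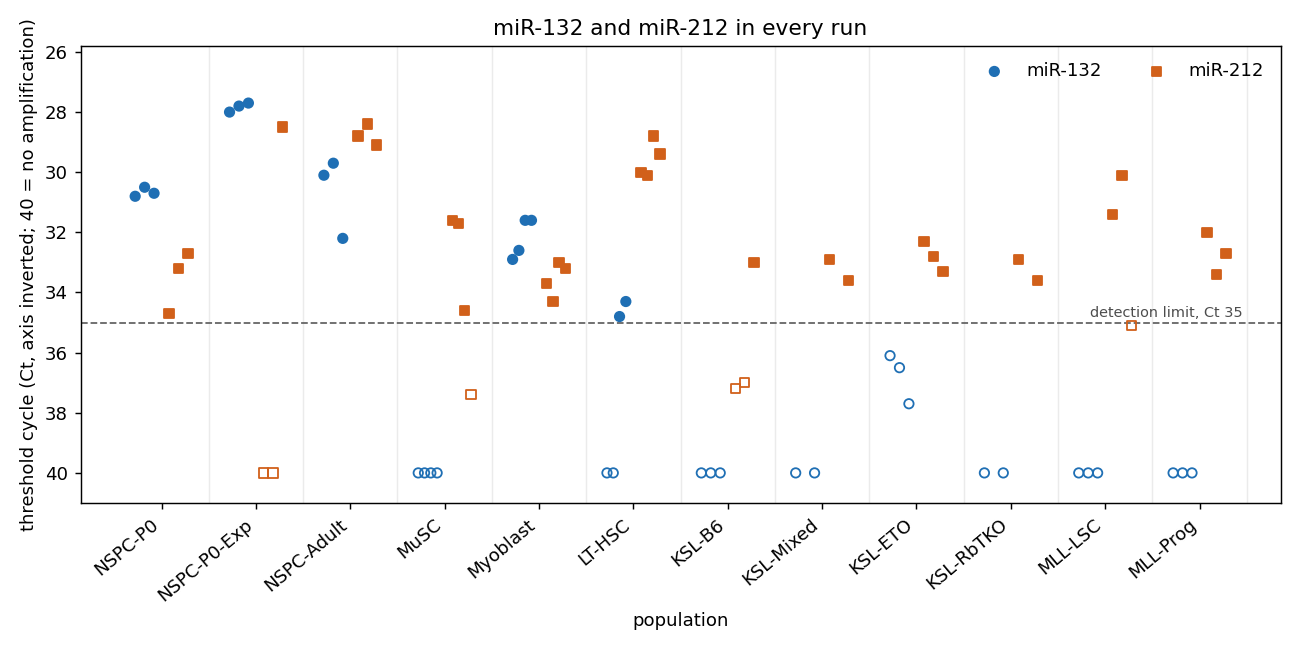
Threshold cycle (y axis, inverted so that more RNA is higher) of miR-132 (circles) and miR-212 (squares) in each of the 37 runs, by population. Filled symbols are below the Ct 35 detection limit (dashed line) and open symbols at or past it, with 40 for no amplification. miR-132 is filled in the 3 neural populations, Myoblast and 2 LT-HSC runs, and miR-212 reaches its lowest Ct in LT-HSC, NSPC-Adult and NSPC-P0-Exp run 3.

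To set all populations on 1 scale, each run's Ct was subtracted from its mean over the 28 assays detected everywhere, which gives a log2 level, and any value under -5.23, the least that every run could measure, was raised to that floor. On this scale miR-132 averaged -1.50 ± 0.21 (SD, n = 3) in NSPC-P0-Exp, -3.73 ± 0.24 (n = 3) in NSPC-P0 and -4.69 ± 0.51 (n = 3) in NSPC-Adult. Myoblast followed at -5.19 ± 0.07 (n = 4), and the other 8 populations lay at the floor. NSPC-P0-Exp lay above NSPC-P0 and NSPC-P0 above NSPC-Adult without overlap, whereas NSPC-Adult and Myoblast overlapped. Without scaling, NSPC-Adult and NSPC-P0 had the same mean Ct of 30.7.

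miR-212 averaged -1.71 ± 0.45 (SD, n = 4) in LT-HSC, above all other populations and without overlap with the next. Without scaling the order of the first pair turned, with a mean Ct of 28.8 in NSPC-Adult and 29.6 in LT-HSC, and their runs overlapped. Then came NSPC-Adult at -3.34 ± 0.43 (n = 3) and KSL-RbTKO at -3.70 ± 0.81 (n = 2), which overlapped. NSPC-P0-Exp at -4.25 ± 1.69 (n = 3) and MuSC at -4.29 ± 1.32 (n = 2) overlapped with their neighbours, and the NSPC-P0-Exp mean combines run 3 at -2.31 with 2 runs at the floor. MLL-LSC averaged -5.11 ± 0.21 (n = 3), and the other 6 populations lay at the floor. In these bulk samples, fewer cells that contain a miRNA and less of it per cell cannot be told apart.

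In 14 comparisons the level was recomputed with only the runs compared, scaled on the assays that all of them detected, and tested with limma, two-sided, over every assay that all runs of at least 1 of the populations had detected. P-values were adjusted by Benjamini-Hochberg within each comparison, with calls at adjusted p under 0.05, and differences are log2 differences ± standard error (SE).

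Expansion of newborn neural cells as neurospheres came with more miR-132. NSPC-P0-Exp exceeded NSPC-P0 by 2.27 ± 0.19, a 4.83-fold difference (limma adjusted p = 0.000525), with all 3 neurosphere runs above all 3 fresh runs. In this comparison 46.8% of 126 tested assays were called, and 21.4% were called higher. The difference was 2.25 with scaling on the other plates (adjusted p = 0.000133) and 2.54 with run 3 alone (adjusted p = 0.0285), and it held under every other setting tried. miR-212 did not pass, at 0.51 ± 1.78 (limma adjusted p = 0.818). With NSPC-P0-Exp runs 1 and 2 left out it was 4.60 ± 1.23 from the single remaining run, which is assumed to vary like the other group (limma adjusted p = 0.0975).

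Of the 16 assays of a list of neural and neuronal miRNAs, 6 were tested in the same contrast and 4 fell, where 25.4% of all tested assays were called lower, and the median was -2.64 against -0.23 over all assays tested. The 4 were miR-7 (-3.83 ± 0.65), miR-134 (-2.23 ± 0.31), a dendritic miRNA of the Dlk1-Dio3 locus, miR-135b (-3.43 ± 0.17) and the mouse miR-137 assay (-3.05 ± 0.76), known for neuronal maturation. miR-218, a neuronal miRNA on plate 2, read -1.09 ± 1.30 and miR-128a -0.60 ± 0.67, and neither passed. Markers of other cells moved too: the 2 endothelial assays summed to 12.1 to 13.7 in NSPC-P0 and to 0.136 to 0.955 in NSPC-P0-Exp, and the 7 blood assays to 2.80 to 3.17 and 0.406 to 0.884, with miR-142-5p at 40 in all 6 runs. In NSPC-P0 most of the blood sum came from miR-150 and miR-223 on plate 2, where NSPC-P0-Exp runs 1 and 2 stood apart. Outside that plate, miR-142-3p on plate 1 fell (-2.48 ± 0.51), from Ct 31.8 to 33.6 in NSPC-P0 to 40 in every NSPC-P0-Exp run. The mouse miR-155 assay on plate 4 was higher by 2.11 ± 0.26. The choroid plexus marker miR-204 (-9.99 ± 1.70) and the epithelial and endocrine miR-375 (-6.12 ± 1.16), both also on plate 2, fell, with the 2 miR-204 assays summing to 4.75 to 56.7 in NSPC-P0 and 0 to 0.101 in NSPC-P0-Exp. The mesenchymal miR-143 (-2.65 ± 0.28) and miR-145 (-2.03 ± 0.27), on plate 1, fell as well. Their part in the difference in miR-132 was not tested.

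Adult neurospheres held less miR-132 than newborn neurospheres. NSPC-Adult lay below NSPC-P0-Exp by 11.4-fold (-3.51 ± 0.69, limma adjusted p = 0.0123), and the Ct of 29.7 to 32.2 did not overlap with 27.7 to 28. Of all tested assays 40.9% were called, and 15.2% were called lower. The call was lost when every assay on the panel was tested (adjusted p = 0.0979) and when NSPC-P0-Exp runs 1 and 2 were left out (-3.52, adjusted p = 0.163). Leaving out any 1 sample gave -3.95 to -2.73 with adjusted p up to 0.0449. NSPC-Adult and NSPC-P0-Exp differ in age, in the isolates they were grown from and in strain labels, which cannot be told apart here.

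In the same pair miR-212 had no readable difference over all runs. It was 3.39 ± 1.86 higher in NSPC-Adult (limma adjusted p = 0.191), with NSPC-P0-Exp values on both sides of the adult ones. Against run 3 alone, whose Ct of 28.5 lay within the adult 28.4 to 29.1, it was -0.82 ± 0.30 (limma adjusted p = 0.158). Without run 3 it was 5.47 and passed (limma adjusted p = 0.000206), but that value rests only on the plates that stood apart. Of the neural list 5 assays were tested: miR-128a, a brain-enriched miRNA, rose by 3.33 ± 0.60, while miR-134 (-3.38 ± 0.30) and miR-135b (-3.57 ± 0.87) fell with miR-132. The list's median was 0.43 against 0.46 over all tested assays.

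Adult neurospheres and myoblasts both contained the 2 miRNAs, and miR-212 differed between them. NSPC-Adult exceeded Myoblast by 4.74 ± 0.35 in miR-212, a 26.7-fold difference (limma adjusted p = 1.74e-05), and the 3 adult runs at Ct 28.4 to 29.1 lay far from the 4 myoblast runs at 33.0 to 34.3. The difference ranged from 4.49 to 4.95 when any 1 sample was left out. The background was high, as 77.7% of 148 tested assays were called and 41.9% were called higher. miR-132 was 1.46 ± 0.67 higher in NSPC-Adult and did not pass (limma adjusted p = 0.0841), with overlapping runs. Without NSPC-Adult replicate 3 it was 2.25 and passed (limma adjusted p = 0.00852). Of the neural list 4 of 5 tested assays rose, namely miR-218 (4.69 ± 0.11), miR-128a (4.35 ± 0.32), miR-184 (2.42 ± 0.33) and miR-135b (2.62 ± 0.70), with a median of 2.62 against 0.32 for all.

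Set against blood and muscle together, the brain populations were high in miR-132. For miR-212 the result depended on whether NSPC-P0-Exp runs 1 and 2 were used. The mean of the 3 neural populations exceeded the mean of the blood (LT-HSC, KSL-B6) and muscle (MuSC, Myoblast) means by 2.84 ± 0.23 in miR-132, or 7.18-fold (limma adjusted p = 8.21e-09, 9 neural and 13 other samples). Here 62.7% of 169 tested assays were called, and 34.3% were called higher. The miR-132 call held under every alternative, from 2.70 to 3.07 with any 1 sample left out, although the third NSPC-Adult run lay at the floor beside the blood runs. For miR-212 the difference was 0.01 ± 0.46 (limma adjusted p = 1). With NSPC-P0-Exp runs 1 and 2 left out it was 1.04 ± 0.37 and passed (limma adjusted p = 0.0257), while LT-HSC stayed above every neural run in level. Of the neural list 4 of 7 tested assays rose (miR-218, miR-135b, miR-7 and miR-134), and the median was 0.66 against 0.12.

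**Figure D3:**
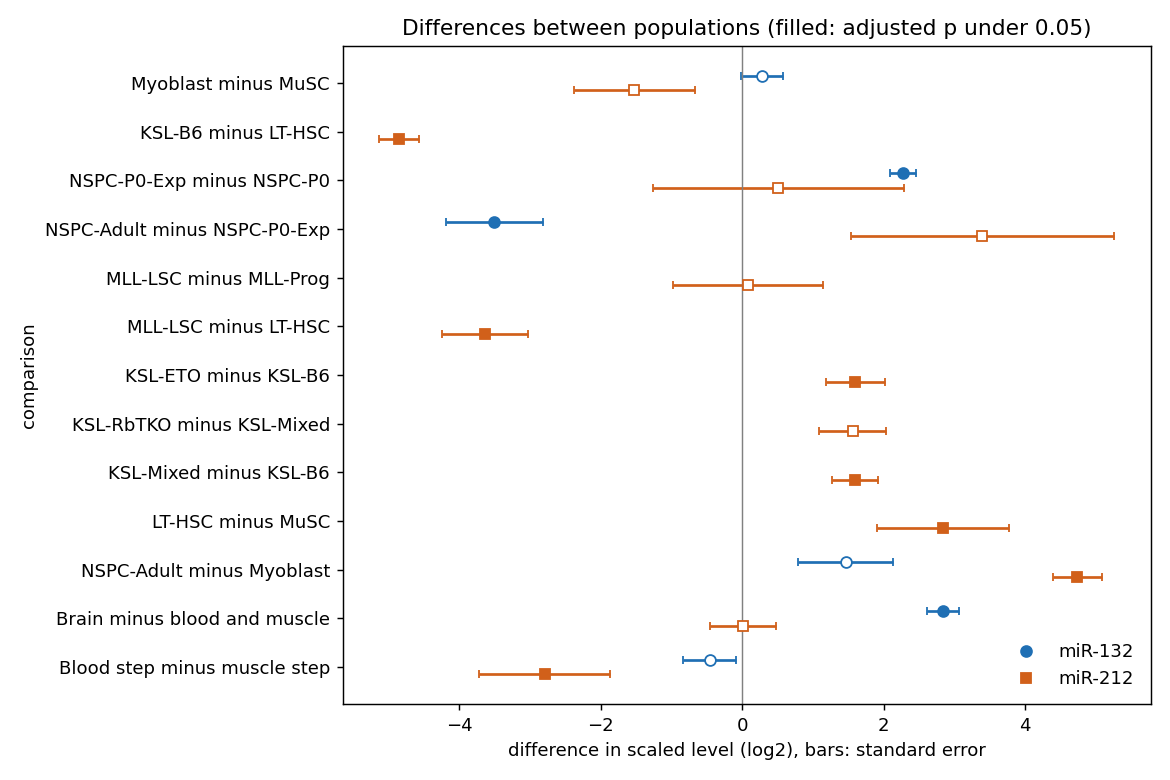
Log2 difference in scaled level (x axis, bars are standard errors) of miR-132 (circles) and miR-212 (squares) in the 13 comparisons where at least 1 of them was tested. Filled symbols passed at limma adjusted p under 0.05. miR-132 passed in the 2 contrasts with NSPC-P0-Exp and in brain against blood and muscle, and miR-212 in the contrasts with LT-HSC, in NSPC-Adult minus Myoblast, in 2 KSL contrasts and in the difference between the blood and muscle steps.

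In normal marrow miR-212 was high in the LT-HSC gate. KSL-B6 lay below LT-HSC by at least 28.8-fold (-4.85 ± 0.28, limma adjusted p = 1.32e-05), where the value is a bound because all 3 KSL-B6 runs lay at the floor of this comparison. The LT-HSC runs at Ct 28.8 to 30.1 did not overlap with KSL-B6 at 33.0 to 37.2, although LT-HSC had the higher mean Ct over shared assays. Of 121 tested assays 64.5% were called and 14.9% were called lower. The difference was -4.76 without any scaling and -5.38 to -4.69 with any 1 sample left out. miR-132 was not tested, since neither population detected it in every run, and its 2 LT-HSC values of 34.8 and 34.3 lay at the floor after scaling.

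Other blood miRNAs differed between these gates in both directions. The summed level of the 7 blood assays was 360 to 545 in LT-HSC and 21.1 to 30.1 in KSL-B6. Most of the sum came from miR-223, at Ct 18.9 to 19.5 in LT-HSC and 20.5 to 21 in KSL-B6. The miR-142 assays did not pass (-0.30 ± 0.46, -0.44 ± 0.53 and 0.10 ± 0.82). Of the 7, miR-223 (-3.68 ± 0.20) and miR-150 (-2.14 ± 0.22), miRNAs of granulocytes and lymphocytes, were lower in KSL-B6, and the 2 assays of miR-155 were higher by 3.55 ± 0.09 and 2.18 ± 0.17. Their part in the difference in miR-212 was not tested. Of the neural list 2 assays were tested and neither passed.

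LT-HSC also exceeded the leukaemia stem cells in miR-212. MLL-LSC lay below LT-HSC by 12.5-fold (-3.64 ± 0.61, limma adjusted p = 0.0035), without overlap in level, in a comparison where 53.7% of 123 tested assays were called and 13.8% were called lower. The replicate numbers of these 2 populations deviated together, and with the number as a block the difference was -3.73 and no longer passed (limma adjusted p = 0.0643). Without scaling it was -2.59 (limma adjusted p = 0.0667), where MLL-LSC run 2 at Ct 30.1 equalled the highest LT-HSC Ct. Between MLL-LSC and MLL-Prog, miR-212 differed by 0.08 ± 1.06 (limma adjusted p = 0.949), with MLL-LSC runs on both sides of MLL-Prog, while 57.4% of 122 assays were called in either direction. Of the neural list 3 assays were tested between MLL-LSC and LT-HSC and 1 was higher in MLL-LSC, miR-7 (1.81 ± 0.40), with a median of 1.07 against 0.80 over all. Against KSL-B6, where 65.9% of 135 assays were called, miR-212 was not tested in MLL-LSC because neither population detected it in every run. Without MLL-LSC replicate 3 it was 3.28 higher in MLL-LSC and passed (limma adjusted p = 0.0145). miR-132 read 40 in all 6 MLL runs.

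Among the progenitor gates, miR-212 calls against KSL-B6 were fragile. KSL-ETO exceeded KSL-B6 by 1.60 ± 0.42 (3.02-fold, limma adjusted p = 0.0166), with 70.4% of 125 assays called and 32% called higher. Leaving out KSL-B6 replicate 1 (1.40, adjusted p = 0.0584), KSL-B6 replicate 2 (1.38, 0.0727), KSL-ETO replicate 1 (1.43, 0.0569) or KSL-ETO replicate 2 (1.65, 0.0557) each ended the limma call. With KSL-B6 and KSL-Mixed together as the control it was 0.11 (limma adjusted p = 0.883). Of 3 neural list assays tested, miR-128a was higher in KSL-ETO (0.83 ± 0.30) and miR-218 lower (-3.03 ± 0.35). The 3 KSL-ETO runs were the only blood progenitor runs in which miR-132 gave any signal short of 40, and with the limit at Ct 38 they exceeded KSL-B6 by 1.09 (limma adjusted p = 0.0737).

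The miR-212 call between the wildtype KSL populations was fragile too, and their unscaled Ct values overlapped. KSL-Mixed exceeded KSL-B6 in miR-212 by 1.60 ± 0.33, a bound because KSL-B6 lay at the floor (limma adjusted p = 0.021), with 47% of 115 assays called and 15.7% called higher. This call was lost without KSL-B6 replicate 1 (1.60, adjusted p = 0.0899), replicate 2 (1.60, 0.0943) or replicate 3 (1.59, 0.0756), each by limma. The KSL-Mixed runs detected 98 to 102 assays against 123 to 133 in KSL-B6. Their mean Ct over the 28 shared assays was 26.8 to 27.2 against 25.05 to 25.22. Strain and this difference in depth cannot be told apart here. Of 3 neural list assays tested here, miR-128a was higher in KSL-Mixed (1.25 ± 0.12). KSL-RbTKO was 1.56 ± 0.48 above KSL-Mixed, which lay at the floor, and did not pass (limma adjusted p = 0.113), with 30.9% of 94 assays called. Without KSL-RbTKO replicate 1 it was 1.40 and without replicate 2 it was 2.10. Each of these sets 1 run against 2 runs at the floor, which have no spread, so their p-values are not read. Without scaling the difference was exactly 0, since the Ct values were the same pair in both populations. KSL-RbTKO detected 61 to 65 assays against 98 to 102 in KSL-Mixed, and its mean Ct over the 28 shared assays was 29.3 to 29.8 against 26.8 to 27.2. The part of this depth difference in the scaled value was not tested.

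In muscle neither miRNA passed between satellite cells and myoblasts. miR-132 read 40 in all 4 MuSC runs and Ct 31.6 to 32.9 in all 4 Myoblast runs, yet the floor set by the shallower MuSC runs left a measurable difference of only 0.28 ± 0.30, a bound (limma adjusted p = 0.446). With no scaling the difference was 2.83 and passed (limma adjusted p = 0.000959). miR-212 differed by -1.53 ± 0.85 in Myoblast, which lay at the floor (limma adjusted p = 0.183), with 61.4% of 127 assays called. Without MuSC replicates 3 and 4 it was -3.35, and without replicates 1 and 2 it was 0, so it depended on which MuSC sample was used. Both are values of 1 MuSC sample against 4 Myoblast samples at the floor, which have no spread, so their p-values are not read. The 3 muscle assays summed to 22.8 to 45.6 in Myoblast and 0.671 to 0.750 in MuSC.

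Between the quiescent stem cells of the 2 tissues, LT-HSC exceeded MuSC in miR-212 by 2.84 ± 0.93 (limma adjusted p = 0.034), with 70% of 80 assays called and 36.2% called higher. The second MuSC sample lay at the floor. The call was lost without that sample (MuSC replicates 3 and 4), which leaves 1 MuSC sample (0.42, adjusted p = 0.503), and without LT-HSC replicate 1 (2.84, 0.0781), replicate 2 (3.01, 0.058), replicate 3 (2.80, 0.0717) or replicate 4 (2.91, 0.0654), each by limma. The 1 neural list assay tested, miR-134, was lower in LT-HSC (-3.83 ± 0.31). The step from stem to progenitor cell itself was compared between tissues. The blood step minus the muscle step was -2.79 ± 0.92 in miR-212 (limma adjusted p = 0.0255), with 55% of 149 assays called and 38.3% called lower. All 3 KSL-B6 and all 4 Myoblast samples lay at the floor of this comparison, so the value equals the difference in level between MuSC and LT-HSC, and the relative size of the 2 steps cannot be read from it. This was -0.72 without MuSC replicates 3 and 4 (limma adjusted p = 0.144) and -2.79 without KSL-B6 replicate 1 (limma adjusted p = 0.0506). Of 3 neural list assays tested, miR-134 passed, at 3.85 ± 0.16. For miR-132, where LT-HSC, KSL-B6 and MuSC lay at the floor, the value was -0.46 ± 0.38 (limma adjusted p = 0.318).

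Although the pair shares a transcript, the distance between the 2 assays was not constant. The gap is the Ct of miR-212 minus that of miR-132 in the same run, and it needs no scaling. Only its change between populations is read here, since assays may differ in efficiency. The 2 assays lie on different plates, so a shift of 1 plate within a run would remain in the gap. In Myoblast it was 0.8, 1.7, 1.4 and 1.6 cycles, in NSPC-P0 3.9, 2.7 and 2.0, and in NSPC-Adult -1.3, -1.3 and -3.1. In NSPC-Adult alone of these 3 populations miR-212 had the lower Ct in every run. NSPC-P0-Exp run 3 had a gap of 0.8, and the 2 LT-HSC runs that detected both had -6.0 and -4.9.

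The mean gap was 1.38 ± 0.40 (SD, n = 4) in Myoblast, 2.87 ± 0.96 (n = 3) in NSPC-P0 and -1.90 ± 1.04 (n = 3) in NSPC-Adult. Myoblast exceeded NSPC-Adult by 3.28 cycles (two-sided exact permutation p = 0.0571, adjusted over 3 pairs 0.0857) and lay 1.49 below NSPC-P0 (a difference of -1.49, exact permutation p = 0.0571, adjusted 0.0857). NSPC-Adult and NSPC-P0 differed by -4.77 (exact permutation p = 0.1, adjusted 0.1). The populations did not overlap in any of the 3 pairs. Each p is the smallest that the design allows, so no pair of this size could reach 0.05. As an alternative, limma across all assays with each level taken relative to miR-132 of the same run passed in all 3 pairs, with adjusted p of 0.00302, 0.0301 and 3.37e-05, where 46.9%, 82.9% and 55.3% of the tested assays were called. In that fit every assay shares the miR-132 value of its run, so the variances that limma pools are not independent. Its p-values may be too small and are not read.

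**Figure D4:**
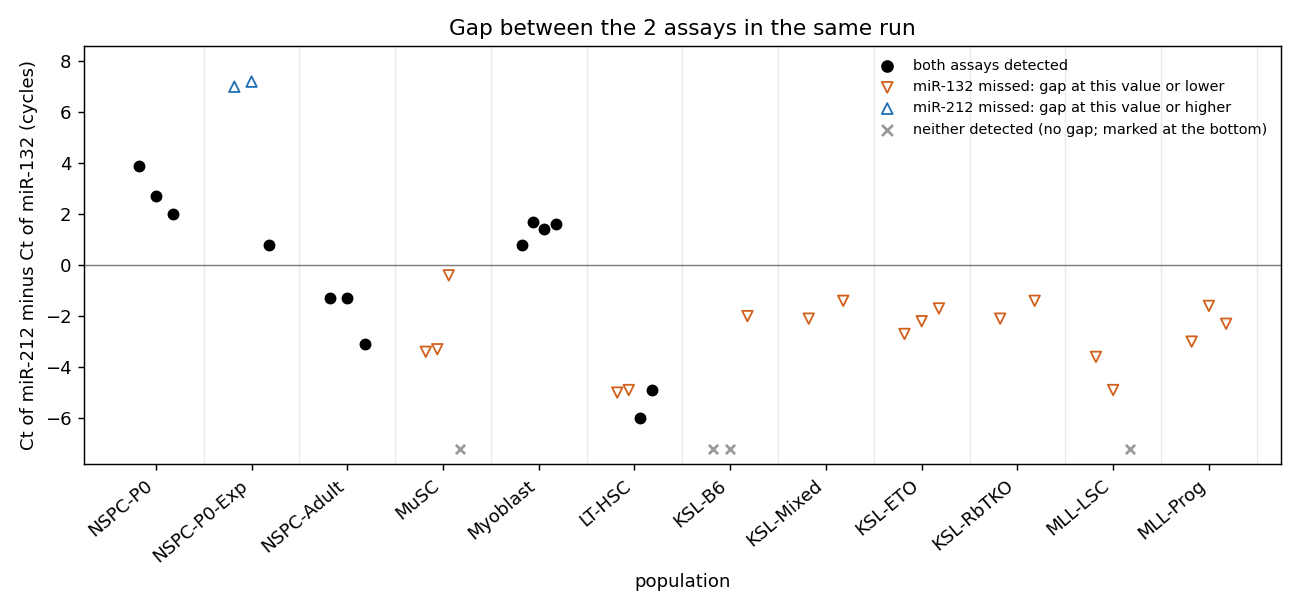
Ct of miR-212 minus Ct of miR-132 in the same run (y axis, cycles), by population. Black points are runs that detected both assays, triangles are bounds with the missed assay set at Ct 35, and crosses at the bottom are runs that detected neither. The gap is positive in NSPC-P0 (2.0 to 3.9) and Myoblast (0.8 to 1.7) and negative in NSPC-Adult (-3.1 to -1.3) and LT-HSC. The 2 bounds of NSPC-P0-Exp rest on the plates that stood apart.

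Where only miR-212 was detected, the gap is a bound with miR-132 at the limit. In LT-HSC runs 1 and 2 it was -5.0 and -4.9 or lower, beside the measured -6.0 and -4.9. In MLL-LSC runs 1 and 2 it was -3.6 and -4.9 or lower, and in the first 2 MuSC runs -3.4 and -3.3 or lower. With the limit at Ct 38, the KSL-ETO gap could be measured and was -3.97 ± 0.38 (SD, n = 3, -4.4 to -3.7). These lay below the gaps of NSPC-P0, Myoblast and NSPC-Adult. Other bounds do not separate from NSPC-Adult: -3.0 to -1.6 or lower in MLL-Prog, -2.0 in KSL-B6 run 3, -2.1 and -1.4 in both KSL-Mixed and KSL-RbTKO, and -0.4 in MuSC run 3. At the limit of Ct 35 the KSL-ETO bounds were -2.7 to -1.7 and did not separate either.

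Across the 12 population means over all runs, the 2 miRNAs had a Pearson r of 0.02 on the scaled levels and 0.158 on the unscaled ones. Among 134 assays detected in every run of at least 3 populations, miR-212 ranked 63rd in likeness to miR-132. In NSPC-P0-Exp, where miR-132 was highest, the scaled miR-212 mean of -4.25 joins run 3 at -2.31 with the 2 runs whose plate 2 stood apart. Neither r nor the rank was recomputed without those 2 runs, so how alike the pair is cannot be read from them. Nearest to miR-132 were the mouse miR-99a assay (r = 0.804), miR-218 (0.736) and a second miR-99a assay (0.705), and without scaling these were 0.869, 0.903 and 0.851. miR-218 read Ct 24.7 to 24.8 in NSPC-Adult, 25.1 to 25.5 in NSPC-P0 and 29.1 to 29.8 in Myoblast, and stayed at 30 or later in the blood populations. The mouse miR-99a assay read 29.2 to 29.5 in NSPC-P0 and 29.9 to 31.4 in Myoblast, and 39.9 or 40 in LT-HSC and both MLL populations. Unlike miR-132, it was detected in all 3 KSL-B6 runs, at 31.7 to 31.8.

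Nearest to miR-212 were the mouse miR-463 assay (r = 0.833), miR-17-5p (0.790) and the mouse miR-192 assay (0.790). Without scaling these fell to 0.280, 0.134 and 0.735, so only miR-192 was alike on both scales. On the scaled levels miR-17-5p and the miR-192 assay lay above the floor in LT-HSC alone, which gives both the same r. Their scaled likeness to miR-212 therefore rests on that population. The miR-192 assay read Ct 29.1 to 29.7 in LT-HSC and 33.3 to 33.6 in NSPC-Adult, and was detected in no Myoblast, NSPC-P0 or NSPC-P0-Exp run. These correlations are descriptions over 12 means that share run depth, the floor and, for NSPC-P0-Exp, the plate that stood apart.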

How the data were processed

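The deposited files hold, for each run, 459 assays with a Ct per assay from multiplex TaqMan reverse transcription and quantitative PCR, per the labels' protocols. The Ct unit falls under no standard count or signal scale, and its software and threshold setting are not stated in the labels. One value with no assay name was left out. The panel has 457 distinct names.

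The 37 runs were grouped by the labels into 12 populations and gave 35 samples after averaging the near-identical MuSC runs. In each comparison a sample's level was its mean Ct over the assays that all compared runs detected (below Ct 35) minus the assay's Ct, with a common floor. The tools were R 4.3.3, limma 3.58.1 for two-sided tests and jsonlite 2.0.0 for reading labels, with Benjamini-Hochberg adjustment over all tested assays and calls at 0.05. A group whose samples all sit at the floor adds no spread, which lowers the standard error. Gaps were compared with exact permutation tests. The method was tested on simulated data. Plates were read from the well numbering, which restarts 4 times in the table.

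The members, the lists and the comparisons were chosen with earlier results of these data known. Named beside the members were the 3 assays most alike each member and up to 4 passing members of the neural list per comparison where a member passed. Other assays and values were named after their values were seen. Among them were the marker assays miR-206, miR-223, miR-150, miR-155 and miR-142, and neural assays that did not pass. Pairing by replicate number was judged from the correlation of residuals. Only MLL-LSC and LT-HSC passed, at r of 0.148 to 0.232 in 3 pairs. Alternatives were other detection limits (Ct 32 and Ct 38), quantile normalization, median centring, no scaling, no floor, every run as its own sample, no detection filter, 1 fit over all groups, the replicate block, pooled KSL controls, and each sample left out in turn. Scaling without plate 2 and leaving out NSPC-P0-Exp runs 1 and 2 were added after the plates had been seen.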

Additional observations from a re-analysis of the deposited data

Results flagged for a closer look

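The blood step (KSL-B6 minus LT-HSC) and the muscle step (Myoblast minus MuSC) differed in miR-212 by -2.79 on the log2 scale, tested as an interaction in limma (adjusted p = 0.0255). All KSL-B6 and Myoblast samples lay at the floor, so this value equals the difference in level between MuSC and LT-HSC, and the relative size of the 2 steps cannot be read from it. The steps taken alone were -4.85 in blood, which is a bound, and -1.53 in muscle, where samples of both groups lay at the floor. In blood the groups did not overlap. In muscle the first MuSC sample, at Ct 31.6 and 31.7, lay above the floor, and the second, at 34.6 and 37.4, lay at the floor with Myoblast. Without the second MuSC sample (replicates 3 and 4) the difference was -0.72 (limma adjusted p = 0.144).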

How the results depend on the processing

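Over 187 recomputations of the members' results under other settings, 152 stayed on their side of the threshold and none turned the direction of a called value. Over 181 that left out 1 sample, 162 did. The miR-132 differences NSPC-P0-Exp minus NSPC-P0 and brain minus blood and muscle, and the miR-212 differences KSL-B6 minus LT-HSC and NSPC-Adult minus Myoblast, passed under every alternative run. Causes were not tested.

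For miR-132, Myoblast minus MuSC passed at a limit of Ct 38 (2.62, adjusted p = 0.00894), with quantile normalization (1.83, 0.00805), no scaling (2.83, 0.000959) and no floor (5.11, 0.000397), all by limma. The blood step minus the muscle step then passed too, at -4.16, -2.57, -3.05 and -10.54 (limma adjusted p 0.00188, 0.0353, 0.000342 and 0.000397). NSPC-Adult minus NSPC-P0-Exp lost its call with all assays tested (-3.51) and with NSPC-P0-Exp runs 1 and 2 left out (-3.52). NSPC-Adult minus Myoblast passed with all 12 groups in 1 fit (0.51, limma adjusted p = 0.00241).

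For miR-212, KSL-ETO minus KSL-B6 lost its call at Ct 38 (3.47), with no scaling (1.53), all assays tested (1.60), all groups in 1 fit (0), both controls (0.11) and the replicate block (1.60, limma adjusted p = 0.0585). KSL-Mixed minus KSL-B6 lost it at Ct 38 (3.66), with no scaling (1.08), median centring (1.5), no floor (4.52), all assays (1.60) and all groups (0). KSL-RbTKO minus KSL-Mixed passed with no floor (2.21), all groups (1.53) and both controls (1.54). LT-HSC minus MuSC lost it at Ct 38 (3.17) and with all assays (2.84). MLL-LSC minus LT-HSC lost it with no scaling (-2.59) and under the replicate block (-3.73, limma adjusted p = 0.0643), and brain minus blood and muscle passed without NSPC-P0-Exp runs 1 and 2 (1.04). The blood step minus the muscle step lost it with all assays (-2.79). The gaps of 3.28, -1.49 and -4.77 passed only by limma. The replicate block changed no other call. Elsewhere replicates share only a number, and at most 2 samples correlated best with their own. For MuSC contrasts, whose averaged samples hold 2 numbers each, the block was run over single runs (added after seeing the data) and miR-212 gave -1.62 against Myoblast and 2.75 for LT-HSC. For KSL-Mixed contrasts no paired analysis was possible because they share no number.

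Leaving out 1 sample gave, for miR-132, 0.07 to 0.37 (Myoblast minus MuSC), 2.13 to 2.41 (NSPC-P0-Exp minus NSPC-P0), -3.95 to -2.73 (NSPC-Adult minus NSPC-P0-Exp), 1.02 to 2.25 (NSPC-Adult minus Myoblast), 2.70 to 3.07 (brain) and -0.62 to -0.21 (steps). For miR-212 it gave -3.35 to 0 (Myoblast minus MuSC), -5.38 to -4.69 (KSL-B6 minus LT-HSC), -1.38 to 1.55 (NSPC-P0-Exp minus NSPC-P0), 2.29 to 5.47 (NSPC-Adult minus NSPC-P0-Exp), -0.73 to 1.18 (MLL-LSC minus MLL-Prog) and -4.23 to -2.92 (MLL-LSC minus LT-HSC). It gave 1.38 to 1.99 (KSL-ETO), 1.40 to 2.10 (KSL-RbTKO and KSL-Mixed), 0.42 to 4.59 (LT-HSC minus MuSC, 2.80 to 3.01 over LT-HSC), 4.49 to 4.95 (NSPC-Adult minus Myoblast), -0.48 to 0.39 (brain) and -4.46 to -0.72 (steps, -2.96 to -2.74 over samples other than MuSC). The gaps ran from 2.68 to 3.58, -1.93 to -0.98 and -5.20 to -4.17.

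Counts of called assays moved by over 1.5 times in 11 comparisons. At Ct 32, Myoblast minus MuSC and KSL-B6 minus LT-HSC each went from 78 to 51, and MLL-LSC minus LT-HSC from 66 to 37 (107 with no scaling). With all assays tested, NSPC-P0-Exp minus NSPC-P0 went from 59 to 33 (37 with the replicate block), NSPC-Adult minus NSPC-P0-Exp from 54 to 32 (86 without NSPC-P0-Exp replicate 3), LT-HSC minus MuSC from 56 to 28 and MLL-LSC minus MLL-Prog from 70 to 34. With all groups in 1 fit the last gave 39, MLL-LSC minus KSL-B6 went from 89 to 42 and NSPC-Adult minus Myoblast from 115 to 74. KSL-RbTKO minus KSL-Mixed, with 29, gave 0 by limma with all assays tested (33 at an unadjusted p under 0.05), 13 without KSL-Mixed replicate 5, 14 with median centring, 48 at Ct 38, 55 with both controls, 57 with no floor and 61 with no scaling. KSL-Mixed minus KSL-B6, with 54, gave 9 with all assays, 30 without KSL-B6 replicate 2, 31 with all groups, 34 at Ct 32 and 96 with no scaling.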
